A study of Mus musculus with 48 samples.

Results

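Interferon-stimulated antiviral effector genes are genes that a cell switches on after it senses interferon, and many of their products act directly against viral RNA, proteins and particles. Some of them regulate the response instead, or have other roles. A set of 52 such mouse genes was chosen by symbol, and each was located in the deposited count table through its Ensembl identifier, so that 52 of 36854 genes are described here. They fall into 9 groups by role: the IFIT family (5 genes), the OAS family (7), the Mx GTPases with the viperin pair (4), the ISG15 system (6), the PARP and DTX3L group (6), TRIM and nuclear body genes (4), RNA-directed effectors (7), membrane and secreted proteins (5) and other induced genes (8).

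The messenger RNA of 48 mouse sarcomas was sequenced, 16 allografts and 32 primary tumours, all of 129/SvJae background. Primary tumours arose in p53FL/FL mice aged 6 to 10 weeks, whose calf muscle received an adenovirus carrying Cre, which deletes the floxed p53 alleles where it infects, and then 300 ug of the carcinogen MCA. Allografts came from 50000 cells of the single line 402230 placed in the same muscle of syngeneic mice, so that the 16 allografts represent 1 tumour line. Tumours of about 150 mm3 were treated and taken 3 days later. The 8 groups combine tumour kind with antibody, 200 ug of the murine anti-PD-1 antibody muDX400 or an isotype control injected into the abdomen, and with a dose of 0 or 20 Gy to the left hind limb, given straight after the antibody. Each allograft group held 4 tumours and each primary group 8. No group was left without an injection, since the unirradiated controls received the isotype antibody. Replicate numbers follow accession order and only name a tumour.

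Type I interferons such as interferon beta bind a receptor on almost every nucleated cell, and the JAK kinases there activate transcription factors that enter the nucleus and bind a promoter element called the interferon-stimulated response element (ISRE). Interferon gamma signals through another receptor to an element called GAS, and many genes answer to both. In tumours, ionising radiation is a known trigger of this programme, and DNA in the cytosol read by the sensor cGAS is one described route.

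Library totals ran from 31.8 to 54 M (mega) counts, with a median of 41.2 M. All 52 members passed the expression filter in every comparison. Levels are given as CPM, gene counts scaled to a fixed total per library, on 1 scale of trimmed-mean normalisation over the 48 tumours. A gene is called when its p-value from edgeR's quasi-likelihood F test, adjusted over all genes tested, was below 0.05. The summed CPM of 8 mesenchymal markers (collagens, vimentin and others) ran from 6318 to 64265 over the 48 tumours, and no marker of that list was at 0 in all tumours of a group. The sum of 8 skeletal muscle genes ran from 12.2 to 81713 CPM. With that list as a covariate 52 and 38 members were called for dose in isotype and anti-PD-1 allografts, and 52 and 51 in isotype and anti-PD-1 primary tumours. Libraries that stood apart for the members are named beside the results they touch.

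Promoter sequences are shown first because the ISRE, where present, lies in such regions, and the stretches chosen are ones that hold its core letters. RefSeq windows on build GRCm38.p6, from 250 bases before to 50 after a start site, were given for 41 of the 52 members. No window was given for Tor3a, Oas2, Usp18, Parp9, Ifi27l2a, Parp10, Mx1, Oas1b, Rtp4, Mx2 and Parp14. The ISRE core searched was GAAANNGAAA on either strand (TTTCNNTTTC on the other), with overlapping matches counted. It was present in 17 of the 41 members (41.5%) and in 1079 of 27025 genes with a window (3.99%). At least 2 matches in 1 window were found in 10 of 41 members (24.4%) and in 0.266% of all genes. A GAS core, TTCNNNGAA, was present in 8 of 41 members (19.5%) against 9.55% of all genes. The stretches below lie before the start site, run 5′ to 3′ on the strand of the gene, and have the ISRE core matches in capitals.

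Isg15 (chr4:156200857-156200916, minus strand): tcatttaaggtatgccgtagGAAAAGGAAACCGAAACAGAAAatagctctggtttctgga
Bst2 (chr8:71537563-71537622, minus strand): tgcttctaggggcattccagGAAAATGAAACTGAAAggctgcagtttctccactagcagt
Oas1a (chr5:120907526-120907585, minus strand): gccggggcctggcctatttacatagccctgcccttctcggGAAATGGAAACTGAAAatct
Oas3 (chr5:120777695-120777754, minus strand): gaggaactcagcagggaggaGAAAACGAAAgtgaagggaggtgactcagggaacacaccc
Ifit1 (chr19:34640765-34640824, plus strand): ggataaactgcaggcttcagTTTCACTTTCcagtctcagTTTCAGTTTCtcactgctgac
Ifit3 (chr19:34583353-34583426, plus strand): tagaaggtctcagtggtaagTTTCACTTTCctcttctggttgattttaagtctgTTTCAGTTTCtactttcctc
Ifit3b (chr19:34607749-34607822, plus strand): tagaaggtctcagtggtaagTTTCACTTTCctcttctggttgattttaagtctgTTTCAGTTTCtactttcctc
Rsad2 (chr12:26456533-26456592, minus strand): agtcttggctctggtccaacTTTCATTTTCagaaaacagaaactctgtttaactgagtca

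In Isg15 3 core matches overlapped in 1 run, beginning 78, 72 and 66 bases before the start site, and in Bst2 and Oas1a 2 matches overlapped in the same way. In Ifit1 and Ifit3 the 2 matches were apart and read on the opposite strand. The 74-base stretches of Ifit3 and Ifit3b differed at 0 positions, and the 2 genes also share transcript sequence. Among role groups the core was found in 4 of the 5 IFIT genes with a window, in 3 of 5 OAS genes and in 0 of 6 of the other induced genes. A match is a description of the letters and not a shown binding site, and a window without one says only that these letters are not in it.

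In allografts given the isotype antibody, every one of the 52 members was higher after 20 Gy than at 0 Gy. All 52 were called higher and 0 lower, where 4.4% of the 17746 genes tested were called higher. The median log2 fold change of the members was 1.92, a 3.78-fold rise, against a median of -0.00 over all genes. Changes ran from 0.96 for Nmi, a partner of STAT proteins, to 3.42 for Ifit3b. The 4 irradiated tumours lay above the 4 unirradiated ones for all 52 members, a separation seen in 9.59% of genes tested. With the first digit of the animal identifier as a covariate, which is partly confounded with dose here, 33 members were called and the median was 1.69. The share of all genes called with that covariate is not given here. Together the 52 members took 0.216 to 0.409% of the scaled library at 0 Gy and 0.935 to 1.53% after 20 Gy.

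In primary tumours given isotype the same comparison also called 52 of 52 members higher, where 7.85% of 17770 genes were. Their median log2 fold change was 1.76 (3.40-fold), from 0.58 for Tdrd7, a tudor-domain protein of RNA granules, to 2.80 for Ifit1bl1. Every irradiated tumour lay above every unirradiated one for 15 members, a separation that 1.5% of genes showed. Without 0 Gy isotype replicate 4, whose members were high, 48 members separated against 2.67% of genes, and the median was 2.13 with 52 called. Without 20 Gy isotype replicate 6, whose members were low, 25 separated against 1.62% of genes.

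With anti-PD-1 in both arms, 38 of 52 members were called higher after 20 Gy in allografts, against 3.13% of genes, and 50 of 52 in primary tumours, against 6.06%. All 52 members had positive changes in each, with medians of 1.46 (2.75-fold) and 1.41 (2.65-fold). The separation of doses was complete for 41 members in allografts (5.83% of genes) and for 2 in primary tumours (0.293% of genes). The 2 were Herc6 and Ifitm3, named after their values were seen. Without primary 20 Gy anti-PD-1 replicate 5, the lowest irradiated tumour for most members, 25 members separated against 1.21% of genes. With only the 8 tumours compared in the fit, 0 of the 52 allograft members were called, and all 52 changes were positive with a median of 1.46. In the fit of all 4 allograft groups, where 38 were called, the number was 18 without 0 Gy anti-PD-1 replicate 4 and 24 without 20 Gy anti-PD-1 replicate 3. The share of all genes called in these reduced fits is not given here. The lower counts are therefore not a result about the members alone. The 14 members not called in the anti-PD-1 allografts were Trim25, Parp9, Parp10, Parp11, Parp12, Parp14, Dtx3l, Pml, Eif2ak2, Helz2, Tdrd7, Ifitm3, Lgals3bp and Nmi. In the anti-PD-1 primary tumours Isg15 (adjusted p = 0.0509) and Nmi (0.0881) were not called.

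**Figure D1:**
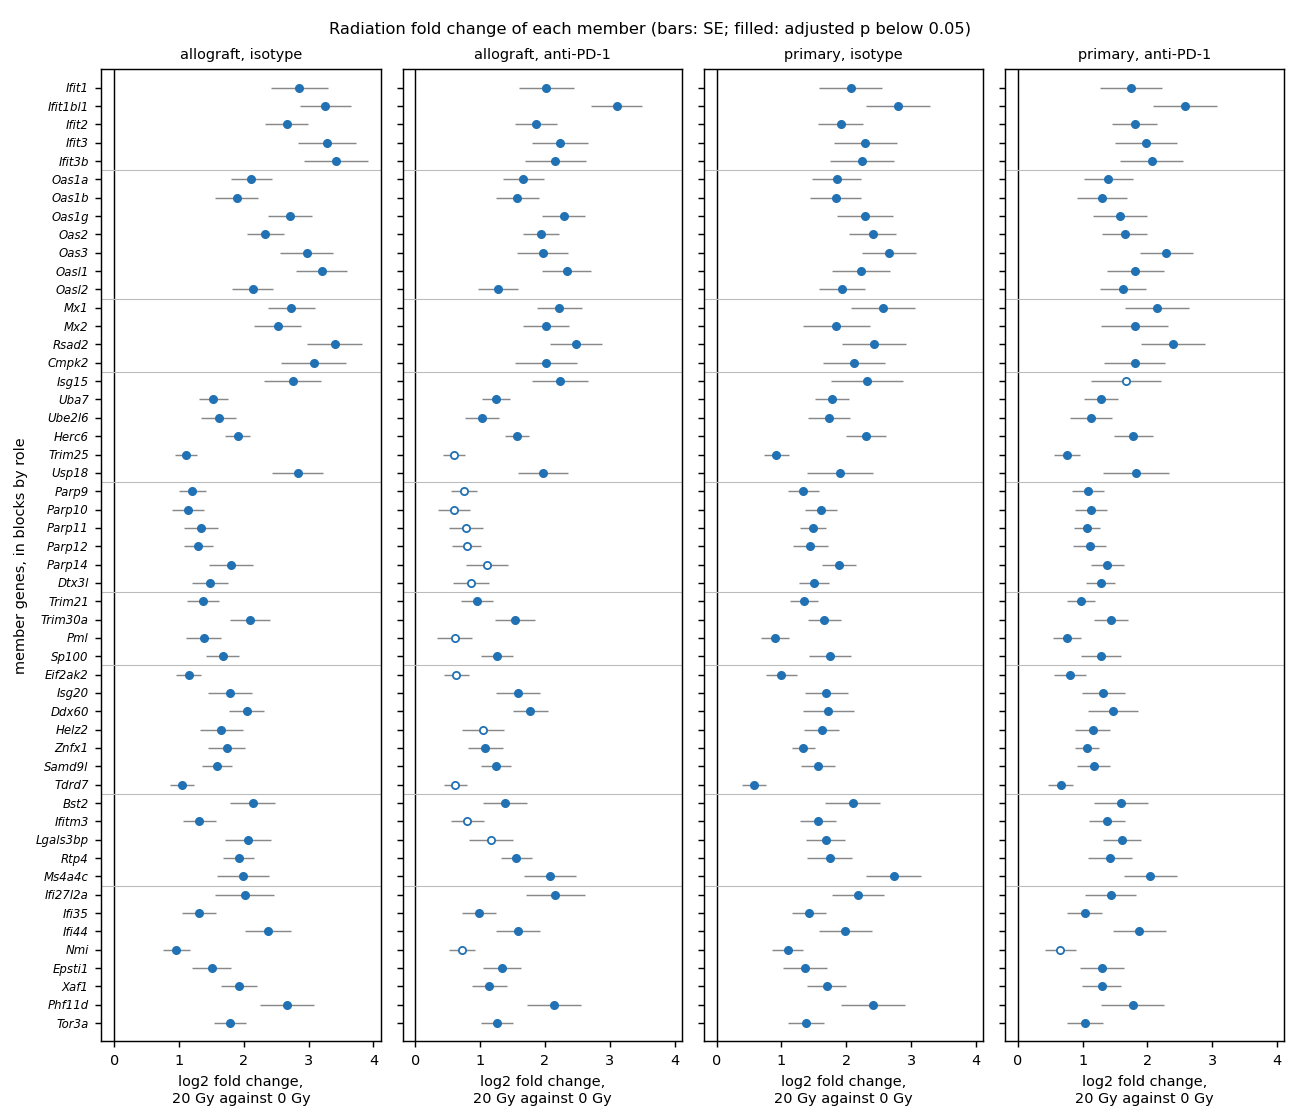
Log2 fold change of each of the 52 members at 20 Gy against 0 Gy (horizontal axis, bars are SE) in 4 comparisons, with members on the vertical axis in blocks by role. Filled points passed an adjusted p of 0.05; all points lie to the right of 0, and open points number 14 in the anti-PD-1 allografts and 2 in the anti-PD-1 primary tumours.

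The IFIT proteins bind foreign RNA by its ends, and the 5 genes lie in 1 cluster between chr19:34550694 and chr19:34650009 on the mm10 build. Of the 9 role groups they had the highest median change in isotype allografts, 3.26 on the log2 scale, and all 5 were called in each of the 4 dose comparisons. In isotype allografts Ifit3, which stabilises the IFIT complex, stood at 41.8, 48.4, 71.5 and 38.6 CPM in replicates 1 to 4 at 0 Gy, and at 831, 373, 295 and 432 CPM after 20 Gy. The groups did not overlap, and replicate 1 of the irradiated group was by far the highest. The change was 3.28 ± 0.45 (log2, SE), a 9.73-fold rise with adjusted p = 0.0015.

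Ifit3b, its near copy, had 13.1, 13.3, 20.4 and 11.8 CPM at 0 Gy and 288, 101.1, 88.6 and 146 CPM after 20 Gy, a change of 3.42 ± 0.50 (10.7-fold, adjusted p = 0.00174). Values of this pair are uncertain relative to each other, because 51.2% of the 50-base words of Ifit3 transcripts also occur in Ifit3b. Ifit1, which binds RNA lacking the methyl mark of host caps, rose from 33.5, 33.7, 53.5 and 27.2 CPM to 445, 222, 164 and 231 CPM (2.86 ± 0.44, adjusted p = 0.00242). Ifit1bl1, an Ifit1-like gene of mice, was near the bottom at 0 Gy, with 5.23, 7.03, 9.19 and 5.96 CPM, and reached 64.3, 54.9, 68.2 and 70.5 CPM. Its 4 irradiated tumours were close to each other, unlike those of Ifit3, and the change was 3.26 ± 0.40 (adjusted p = 0.000909). Ifit2, the remaining family member, changed by 2.66 ± 0.34.

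With anti-PD-1 the allograft values of Ifit3 were 58.5, 131.5, 82.0 and 42.0 CPM at 0 Gy and 639, 198, 373 and 271 CPM after 20 Gy. The groups again did not overlap, and the change was 2.24 ± 0.43 (adjusted p = 0.0126). Ifit1bl1 showed the largest change of any member in that arm, 3.11 ± 0.39 (8.62-fold, adjusted p = 0.00252), from 13.3, 7.02, 15.5 and 3.88 CPM to 92.7, 57.2, 135.7 and 54.4 CPM. Ifit1 changed by 2.02 ± 0.42 and Ifit3b by 2.16 ± 0.47.

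Primary tumours spread more widely. At 0 Gy with isotype Ifit3 ran from 23.9 CPM through a median of 84.4 to 382, and after 20 Gy from 196 through 527 to 851. Only the highest unirradiated tumour, replicate 4, reached into the irradiated range, and the change was 2.29 ± 0.49 (adjusted p = 0.00178). Ifit1bl1 ran from 1.52 through 3.76 to 24.6 CPM at 0 Gy and from 26.0 through 41.1 to 62.7 CPM after 20 Gy, without overlap, a 6.97-fold rise (2.80 ± 0.50, adjusted p = 0.000324). Ifit1 had medians of 60.4 and 286 CPM and Ifit3b of 29.1 and 168 CPM, with changes of 2.07 ± 0.48 and 2.24 ± 0.49. Without replicate 4 of the unirradiated group the changes were 2.91 for Ifit3, 3.56 for Ifit1bl1, 2.54 for Ifit1 and 2.75 for Ifit3b.

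In the anti-PD-1 primary tumours Ifit3 ran from 23.9 through 95.1 to 146 CPM at 0 Gy and from 58.1 through 375 to 719 CPM after 20 Gy. The irradiated group reached down into the unirradiated range, and the change was 1.98 ± 0.48 (adjusted p = 0.0108). Ifit1bl1 had the largest change there too, 2.58 ± 0.49 (5.96-fold, adjusted p = 0.00175).

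**Figure D2:**
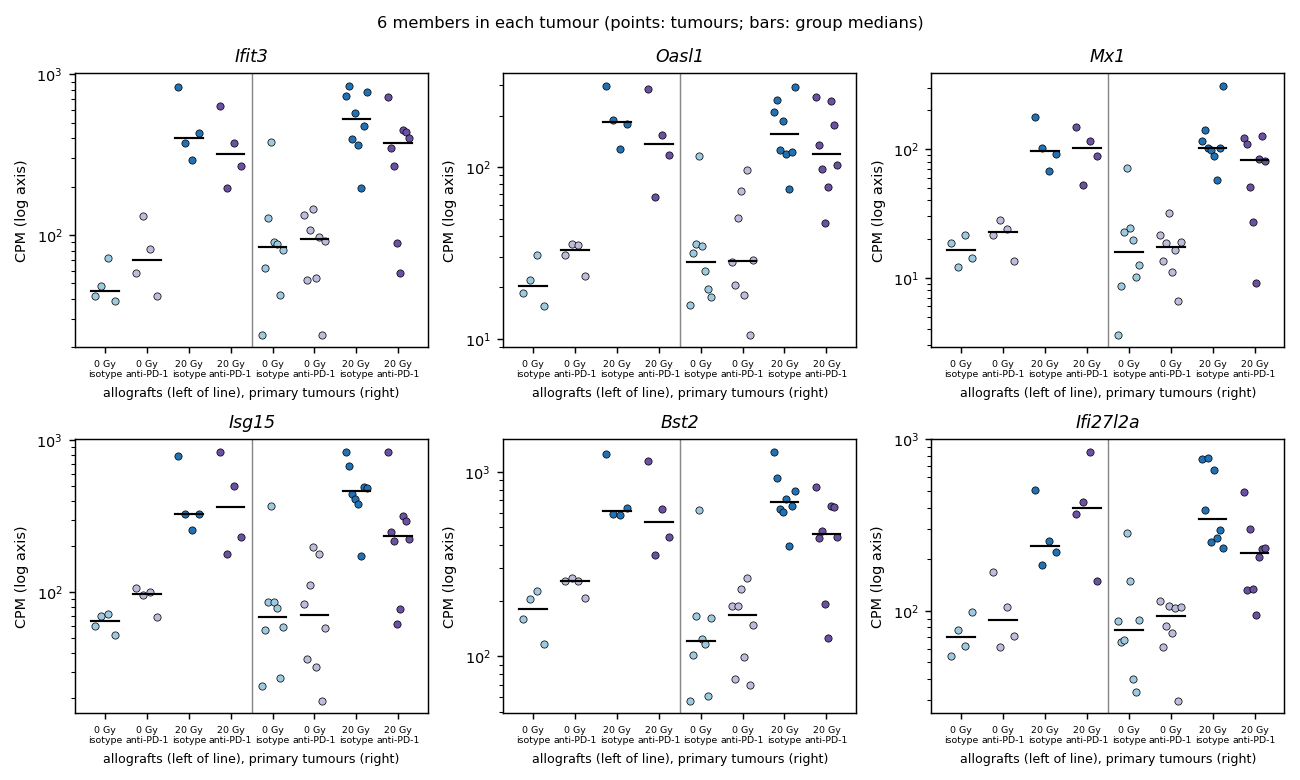
CPM (vertical log axis) of Ifit3, Oasl1, Mx1, Isg15, Bst2 and Ifi27l2a in each of the 48 tumours, with the 8 groups on the horizontal axis, allografts to the left of the line; points are tumours and bars are group medians. Irradiated medians lie above unirradiated ones in each pair, and in the unirradiated primary isotype group 1 tumour, replicate 4, stands above the rest (Ifit3 at 382 CPM).

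The OAS enzymes make short adenylate chains that activate the nuclease RNase L. All 7 genes lie on chromosome 5, and all 7 were called in each dose comparison, with a median change of 2.33 in isotype allografts and 2.23 in isotype primary tumours. Oasl1, which has lost the enzyme activity and restrains IRF7 translation, stood at 18.6, 22.0, 31.0 and 15.6 CPM in unirradiated isotype allografts and at 299, 189, 127.8 and 178 CPM after 20 Gy. No tumour of one dose fell among those of the other, and the change was 3.20 ± 0.39 (9.20-fold, adjusted p = 0.000909). With anti-PD-1 it went from 30.7, 36.0, 35.2 and 23.2 CPM to 287, 67.1, 155 and 118.2 CPM (2.33 ± 0.38, adjusted p = 0.00652).

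In primary isotype tumours Oasl1 ran from 15.7 through 28.3 to 115.98 CPM at 0 Gy and from 75.1 through 156 to 295 CPM after 20 Gy (2.23 ± 0.45, adjusted p = 0.00108). Only the highest unirradiated tumour, replicate 4, lay within the irradiated range, and without it the change was 2.77. With anti-PD-1 the ranges were 10.6 to 96.4 CPM and 47.3 to 257 CPM, with medians of 28.4 and 120 CPM (1.81 ± 0.44, adjusted p = 0.0111).

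Oas1a, an active synthetase, had 32.9, 41.4, 49.4 and 27.7 CPM in unirradiated isotype allografts and 255, 125.9, 128.1 and 140.7 CPM after 20 Gy, a change of 2.12 ± 0.32 (adjusted p = 0.00212). It shares 57.6% of its 50-base words with Oas1g (2.71 ± 0.34), so the division of reads between them is uncertain. Oas1b, the flavivirus resistance gene of mice, was low, at 5.70, 4.33, 6.10 and 5.31 CPM before and 32.9, 18.7, 12.1 and 14.9 CPM after irradiation (1.89 ± 0.33, adjusted p = 0.00458), again without overlap. The gene annotation types it as a polymorphic pseudogene, and whether these mice carry an intact copy is not given in the sources used here. Isotype primary tumours had medians that went from 30.7 to 145 CPM for Oas1a and from 6.68 to 29.4 CPM for Oas1b, with changes of 1.85 ± 0.38 and 1.84 ± 0.39, or 2.46 and 2.22 without unirradiated replicate 4. Oas3, which prefers long double-stranded RNA, changed by 2.97 ± 0.41 in allografts and 2.66 ± 0.41 in primary tumours, the largest of the family in the latter. Oas2 changed by 2.33 ± 0.29 and 2.41 ± 0.36, and Oasl2 by 2.14 ± 0.32 and 1.93 ± 0.36.

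Mx proteins are dynamin-like GTPases that trap viral nucleoproteins, and viperin, the product of Rsad2, makes a chain-terminating nucleotide from a substrate supplied by its neighbour on chromosome 12, Cmpk2. The 4 genes were called in all 4 dose comparisons, with a median change of 2.91 in isotype allografts and 2.27 in isotype primary tumours. Rsad2 stood at 12.5, 13.5, 25.1 and 10.3 CPM in unirradiated isotype allografts and at 242, 145, 98.3 and 155 CPM after 20 Gy (3.40 ± 0.42, 10.6-fold, adjusted p = 0.000909). Cmpk2 went from 11.3, 12.2, 23.7 and 9.28 CPM to 194, 102.1, 69.7 and 106.5 CPM (3.08 ± 0.50, adjusted p = 0.0029). In both genes replicate 3 was the highest unirradiated tumour and the lowest irradiated one, 2 different animals that share only a number.

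Mx1, nuclear in mice, went from 18.5, 12.1, 21.5 and 14.2 CPM to 178, 101.3, 67.5 and 91.3 CPM (2.74 ± 0.36, adjusted p = 0.00115). Mx2, its cytoplasmic counterpart, went from 9.57, 8.04, 10.4 and 8.74 CPM to 91.2, 44.4, 32.3 and 41.3 CPM (2.52 ± 0.36, adjusted p = 0.00167). Mx2 is typed as a polymorphic pseudogene too, with the same limit as for Oas1b. With anti-PD-1 the allograft changes were 2.48 ± 0.40 for Rsad2, 2.22 ± 0.35 for Mx1, 2.02 ± 0.35 for Mx2 and 2.01 ± 0.48 for Cmpk2. Cmpk2 was the 1 gene of the 4 in which the doses overlapped in that arm, its lowest irradiated tumour being at 33.5 CPM and its highest unirradiated one at 34.3.

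In primary isotype tumours Mx1 ran from 3.61 through 16.0 to 71.2 CPM at 0 Gy and from 57.9 through 102.4 to 311 CPM after 20 Gy (2.57 ± 0.49, adjusted p = 0.0007). Rsad2 ran from 8.63 through 22.4 to 73.1 CPM and from 60.8 through 145 to 269 CPM (2.43 ± 0.50, adjusted p = 0.00138). Each overlapped only through unirradiated replicate 4, without which the changes were 3.15 for Mx1 and 2.83 for Rsad2. Mx2 had medians of 13.4 and 63.1 CPM and Cmpk2 of 19.5 and 87.3 CPM, with changes of 2.18 and 2.60 without that tumour. In the anti-PD-1 arm the medians of Rsad2 were 21.6 and 147 CPM (2.40 ± 0.50, adjusted p = 0.00358) and those of Mx1 17.5 and 82.5 CPM (2.15 ± 0.49, adjusted p = 0.00673), with irradiated tumours as low as 18.3 and 9.17 CPM.

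ISG15 is a ubiquitin-like protein, coupled to targets by Uba7, Ube2l6 and Herc6, the main ligase of mice, and removed by Usp18, which also quiets the interferon receptor. In isotype allografts Isg15 stood at 59.98, 69.6, 71.8 and 52.4 CPM at 0 Gy and at 788, 328, 256 and 327 CPM after 20 Gy (2.76 ± 0.44, adjusted p = 0.0029). Usp18 went from 21.5, 23.7, 30.9 and 16.3 CPM to 266, 130, 106.5 and 148 CPM (2.83 ± 0.40, adjusted p = 0.00162). Both were highest in irradiated replicate 1 and lowest in replicate 3, with no overlap between doses.

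The conjugating genes also rose. Herc6 went from 13.4, 12.5, 14.5 and 9.75 CPM to 64.4, 39.9, 38.9 and 41.8 CPM, a change of 1.90 ± 0.19 with the smallest adjusted p of any gene tested in that comparison, 0.000611. Uba7 went from 34.9, 24.9, 41.9 and 26.2 CPM to 108.01, 88.5, 80.6 and 87.2 CPM (1.53 ± 0.22, adjusted p = 0.00174). Ube2l6 changed by 1.61 ± 0.27 and Trim25, a ligase for ISG15 and for the RNA sensor RIG-I, by 1.11 ± 0.17.

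In primary isotype tumours the 6 genes were all called. Herc6 ran from 3.34 through 8.13 to 23.1 CPM and from 35.1 through 49.4 to 80.5 CPM after 20 Gy, without overlap (2.31 ± 0.31, adjusted p = 2.59e-05). Isg15 ran from 24.1 through 69.2 to 368 CPM and from 173 through 464 to 842 CPM (2.32 ± 0.55, adjusted p = 0.00454). Its SE was wider than that of Herc6, and the doses overlapped. Without unirradiated replicate 4 the changes were 3.06 for Isg15, 2.69 for Usp18, 2.62 for Herc6 and 2.03 for Uba7. Usp18 had medians of 25.7 and 140 CPM and Uba7 of 20.6 and 85.5 CPM, the latter without overlap. In the anti-PD-1 primary tumours Isg15 ran from 19.3 through 71.2 to 199 CPM at 0 Gy and from 61.4 through 236 to 833 CPM after 20 Gy, and its change of 1.67 ± 0.54 was not called (adjusted p = 0.0509), while the other 5 genes were. In the anti-PD-1 allografts Isg15 went from 106.3, 96.4, 99.8 and 68.6 CPM to 832, 177, 500 and 231 CPM (2.24 ± 0.43, adjusted p = 0.0126), and Trim25 was not called (0.59 ± 0.17, adjusted p = 0.065).

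The PARP enzymes attach ADP-ribose to proteins, and Parp9 works in a complex with the ubiquitin ligase Dtx3l, whose gene overlaps it head to head on chromosome 16. In isotype allografts their median change was 1.32, the lowest of the 9 role groups, and all 6 were called. Parp14, a large enzyme with macrodomains, stood at 84.7, 74.7, 162 and 51.4 CPM at 0 Gy and at 305, 301, 289 and 384 CPM after 20 Gy (1.81 ± 0.33, adjusted p = 0.00667). Parp11 went from 27.2, 24.2, 42.3 and 17.5 CPM to 75.9, 60.2, 63.5 and 77.9 CPM (1.34 ± 0.26, adjusted p = 0.00889). Irradiated replicate 1, the highest tumour for 40 members, did not lead for these 2 genes, in which replicate 4 was the highest.

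With anti-PD-1, 0 of the 6 were called in allografts. Parp14 went from 117.7, 157, 180 and 120.6 CPM to 303, 194, 264 and 460 CPM, without overlap (1.11 ± 0.33, adjusted p = 0.0735), and Parp11 from 29.5, 49.0, 44.2 and 28.8 CPM to 71.5, 49.9, 58.3 and 78.6 CPM (0.78 ± 0.26, adjusted p = 0.106). The values of the others were 0.75 ± 0.21 for Parp9 (adjusted p = 0.0544), 0.60 ± 0.24 for Parp10 (0.186), 0.79 ± 0.22 for Parp12 (0.0602) and 0.85 ± 0.28 for Dtx3l (0.102). Unirradiated tumours of this arm had more Parp14 and Parp11 than the isotype ones at the median, a difference that was itself not called.

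Primary tumours gave this group small errors. Parp14 ran from 40.5 through 64.5 to 101.6 CPM and from 183 through 220 to 427 CPM after 20 Gy with isotype, without overlap (1.89 ± 0.26, adjusted p = 3.49e-05). Parp11 ran from 17.7 through 21.2 to 38.6 CPM and from 47.9 through 64.9 to 91.5 CPM (1.48 ± 0.20, adjusted p = 2.97e-05), and without unirradiated replicate 4 the changes were 2.01 for Parp14 and 1.64 for Parp11. All 6 were called in both primary arms, with Parp9 at 1.34 ± 0.24, Parp10 at 1.62 ± 0.25, Parp12 at 1.45 ± 0.26 and Dtx3l at 1.503 ± 0.23 under isotype. Parp9 and Dtx3l overlap on opposite strands for 7.71 and 8.02% of their 50-base words, and whether counting used strand is not given in the sources used here.

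Among TRIM and nuclear body genes, Trim30a, which restrains Toll-like receptor signalling, went from 36.6, 43.5, 69.3 and 34.4 CPM to 248, 148, 179 and 198 CPM in isotype allografts (2.09 ± 0.31, adjusted p = 0.00188). Pml, the scaffold of PML nuclear bodies, went from 55.5, 44.8, 76.7 and 42.6 CPM to 138.4, 149, 120.5 and 156 CPM (1.38 ± 0.27, adjusted p = 0.00933). Neither overlapped between doses. Sp100, a second protein of those bodies, changed by 1.67 ± 0.25, and Trim21, an intracellular antibody receptor, by 1.38 ± 0.25.

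Under anti-PD-1 the allograft doses overlapped for Pml, with 50.97, 98.5, 67.3 and 62.0 CPM at 0 Gy and 126.4, 67.5, 85.2 and 140 CPM after 20 Gy, and its change of 0.60 ± 0.27 was not called (adjusted p = 0.228, the highest of the 52). Trim30a (1.54 ± 0.30), Sp100 (1.26 ± 0.25) and Trim21 (0.95 ± 0.24) were called. Pml in primary isotype tumours had a median of 69.6 CPM at 0 Gy and 116.2 after 20 Gy (0.90 ± 0.22, adjusted p = 0.005), with ranges of 43.0 to 109.02 and 79.4 to 250 CPM that overlapped. Trim30a ran from 25.3 through 41.7 to 126.2 CPM and from 120 through 154 to 195 CPM (1.66 ± 0.26, adjusted p = 9.77e-05), where only replicate 4 at 0 Gy overlapped, and without it the changes were 2.05 for Trim30a and 1.03 for Pml.

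Of the RNA-directed effectors, Eif2ak2 encodes PKR, a kinase that halts translation on sensing double-stranded RNA. It stood at 52.2, 48.4, 67.0 and 39.2 CPM in unirradiated isotype allografts and at 116.01, 110.5, 102.7 and 121.3 CPM after 20 Gy, a narrow spread in both groups (1.15 ± 0.19, adjusted p = 0.00345). Isg20, an exonuclease, had 18.8, 17.6, 17.0 and 18.0 CPM at 0 Gy, within 2 CPM of each other, and 97.4, 50.6, 39.8 and 56.0 CPM after 20 Gy (1.79 ± 0.34, adjusted p = 0.00802). Ddx60, a helicase, changed by 2.05 ± 0.27, the most of the 7.

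Znfx1, a mitochondrial helicase that senses RNA, changed by 1.73 ± 0.28, Helz2, a helicase, by 1.65 ± 0.33, Samd9l, a brake on translation, by 1.59 ± 0.23 and Tdrd7 by 1.05 ± 0.18. With anti-PD-1, Eif2ak2 (0.63 ± 0.19, adjusted p = 0.0746), Helz2 (1.05 ± 0.32, 0.0857) and Tdrd7 (0.62 ± 0.18, 0.0725) were not called in allografts, and the other 4 were. Eif2ak2 in primary isotype tumours ran from 36.1 through 62.0 to 104.5 CPM and from 82.8 through 111.7 to 265 CPM (0.999 ± 0.24, adjusted p = 0.00514). Isg20 had medians of 13.9 and 62.8 CPM (1.69 ± 0.33, adjusted p = 0.000797), and without unirradiated replicate 4 the changes were 1.14 for Eif2ak2 and 2.08 for Isg20. All 7 were called in both primary arms, where Tdrd7 was at 0.58 ± 0.19 with isotype and 0.66 ± 0.19 with anti-PD-1.

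Bst2, or tetherin, holds budding virus on the cell surface, and Ifitm3 blocks fusion in endosomes. Per length of transcript Ifitm3 was the most abundant member in unirradiated isotype allografts, at 698 CPM per kilobase, followed by Bst2 (195), Ifi27l2a (158) and Isg15 (83.9), and Ddx60 was the lowest (1.12). The leading 4 were the same genes in irradiated isotype tumours of both kinds and in unirradiated isotype primary tumours, with Ifi27l2a before Bst2 in both primary groups. The SDs of Bst2 and Ifi27l2a overlapped in those groups, so their order is not firm.

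Bst2 went from 159, 203, 226 and 116.3 CPM to 1249, 594, 583 and 637 CPM in isotype allografts (2.14 ± 0.35, adjusted p = 0.00299). Ifitm3 went from 435, 544, 592 and 322 CPM to 1432, 1058, 1083 and 1060 CPM (1.31 ± 0.25, adjusted p = 0.00802). Each had 3 irradiated tumours close together and replicate 1 above them. Ms4a4c, a membrane protein of myeloid and lymphoid cells, went from 64.7, 93.7, 114.2 and 69.5 CPM to 429, 235, 349 and 323 CPM (1.99 ± 0.40, adjusted p = 0.0098). The secreted glycoprotein Lgals3bp changed by 2.07 ± 0.35 and Rtp4, a receptor chaperone, by 1.92 ± 0.25.

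Under anti-PD-1, Ifitm3 in allografts was at 752, 524, 699 and 622 CPM before and 1604, 650, 1157 and 1057 CPM after 20 Gy, with overlap (0.80 ± 0.25, adjusted p = 0.0871). Lgals3bp was not called either (1.17 ± 0.34, adjusted p = 0.0713). Bst2 (1.39 ± 0.34, adjusted p = 0.0356), Rtp4 (1.56 ± 0.24) and Ms4a4c (2.08 ± 0.40, adjusted p = 0.0121) were called.

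Bst2 in primary isotype tumours ran from 57.4 through 120.6 to 619 CPM and from 398 through 686 to 1285 CPM (2.10 ± 0.42, adjusted p = 0.00108). Ifitm3 ran from 210 through 283 to 1067 CPM and from 726 through 1100 to 1468 CPM (1.57 ± 0.28, adjusted p = 0.000359). Unirradiated replicate 4 held the top value for both and alone overlapped the irradiated group, and without it the changes were 2.77 for Bst2 and 2.04 for Ifitm3. Ms4a4c ran from 17.4 through 33.9 to 150 CPM and from 167 through 278 to 477 CPM, without overlap, the second largest change in that comparison (2.73 ± 0.42, adjusted p = 8.43e-05), and 3.33 without that tumour.

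The 8 other induced genes had median changes of 1.85 in isotype allografts and 1.56 in isotype primary tumours. Ifi27l2a, a small membrane protein, went from 54.2, 77.7, 62.3 and 97.7 CPM to 508, 186, 256 and 220 CPM in isotype allografts (2.02 ± 0.46, adjusted p = 0.0197, the highest of the 52). Xaf1, a promoter of apoptosis, went from 85.4, 94.2, 146 and 60.2 CPM to 440, 316, 301 and 383 CPM (1.92 ± 0.28, adjusted p = 0.00174). Neither gene overlapped between doses. Phf11d, a zinc finger gene, changed by 2.67 ± 0.42, Ifi44 by 2.37 ± 0.35, the torsin ATPase Tor3a by 1.79 ± 0.25, Epsti1 by 1.51 ± 0.30, Ifi35 by 1.31 ± 0.26 and its partner Nmi by 0.96 ± 0.21.

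In the anti-PD-1 allografts Ifi27l2a went from 168, 61.4, 105.4 and 71.7 CPM to 366, 434, 848 and 150 CPM, with overlap (2.16 ± 0.46, adjusted p = 0.0189). It and Ms4a4c were the 2 members whose change was not larger with isotype, and in both the highest irradiated tumour of that arm was replicate 3 and not replicate 1. Nmi was not called (0.72 ± 0.21, adjusted p = 0.0636). In primary isotype tumours Ifi27l2a ran from 33.5 through 77.4 to 284 CPM and from 233 through 344 to 779 CPM (2.18 ± 0.40, adjusted p = 0.000446), and Xaf1 from 50.1 through 103.9 to 298 CPM and from 256 through 399 to 552 CPM (1.70 ± 0.30, adjusted p = 0.000329). Without unirradiated replicate 4 these changes were 2.63 for Ifi27l2a and 2.01 for Xaf1.

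The genes that carry the signal moved in part. Ifnb1, the gene of interferon beta, stood at 0.143, 0.137, 0.113 and 0.112 CPM in unirradiated isotype allografts, 5 or 6 counts each, and at 2.26, 0.370, 0.329 and 0.658 CPM after 20 Gy (2.83 ± 0.72, adjusted p = 0.0329). With anti-PD-1 it had 4, 4, 2 and 6 counts at 0 Gy and 61, 12, 43 and 8 counts after 20 Gy (3.14 ± 0.74, adjusted p = 0.0302). It was higher in primary isotype tumours as well (2.53 ± 0.72, adjusted p = 0.0171), from 0 to 22 counts at 0 Gy and from 8 to 57 after 20 Gy, and not called with anti-PD-1 (1.74 ± 0.73, adjusted p = 0.146). These are few counts, and the fold depends on them. Ifng, the gene of interferon gamma, was called in 0 of the 4 dose comparisons (adjusted p from 0.0586 to 0.714). Of the other 6 listed ligands Ifna1 was not matched, and Ifna2, Ifna4, Ifna5, Ifnl2 and Ifnl3 had at most 17 counts in any tumour and were not tested.

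Irf7, the transcription factor that amplifies type I interferon, stood at 106.2, 158, 216 and 108.7 CPM in unirradiated isotype allografts and at 1801, 976, 1032 and 1247 CPM after 20 Gy (3.12 ± 0.36, 8.69-fold, adjusted p = 0.000909). Its change in primary isotype tumours was 2.47 ± 0.43 (adjusted p = 0.000291). There unirradiated replicate 4 stood at 739 CPM and the others at 50.5 to 200 CPM, against 749 to 1306 CPM after 20 Gy. The change of Irf7 without replicate 4 is not given here. Of 10 receptor and JAK-STAT genes 4 were called higher in isotype allografts, 2 in anti-PD-1 allografts and 6 in each primary arm, and 0 lower, while Ifnar1, Ifngr1 and Ifngr2 were called in none of the 4. Of 7 regulatory factors and feedback genes 3, 2, 5 and 5 were called higher in the same order, and of 10 nucleic acid sensors 8, 5, 8 and 7. Tmem173, the gene of STING, and Mavs were not called in any of the 4.

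Markers of white blood cells and of other cell types moved with dose as well. Of 5 pan-leukocyte markers 5 were called higher after 20 Gy in isotype allografts, 3 in anti-PD-1 allografts, 5 in isotype primary tumours and 2 in anti-PD-1 primary tumours. Their summed level was 573 to 1139 CPM in unirradiated isotype allografts and 1457 to 2208 CPM after 20 Gy, and 475 to 799 and 806 to 1942 CPM in isotype primary tumours. Of 8 monocyte and macrophage markers 3, 3, 5 and 3 were called higher in the same order, with sums of 1780 to 2125 and 2641 to 3138 CPM in isotype allografts and 1468 to 3223 and 2005 to 5122 CPM in isotype primary tumours. Neutrophil markers, 6 listed and 5 tested in primary tumours, had median changes of -0.37 (0 called) and -0.83 (1 called higher) in isotype and anti-PD-1 allografts, and of 2.50 (1 called higher) and 1.90 (2 called higher) in isotype and anti-PD-1 primary tumours. Their summed level was 13.6 to 79.8 CPM in unirradiated and 31.5 to 772 CPM in irradiated isotype primary tumours. The 8 skeletal muscle genes had median changes of -0.65 and 0.05 in isotype and anti-PD-1 allografts and of 2.19 and 2.84 in isotype and anti-PD-1 primary tumours, where all 8 were positive, 0 were called, and 0 and 7 had an unadjusted p below 0.05. Of 8 mesenchymal markers 1, Vim, was called lower in each primary arm and 0 in allografts. Of 5 endothelial markers 1, Kdr, was called higher in isotype allografts (1.22 ± 0.28, adjusted p = 0.0204) and 0 in the other 3 comparisons. Of 6 T cell markers and 5 plasmacytoid dendritic cell markers 0 were called in any of the 4, and no marker of these lists was at 0 in all tumours of a group. Apart from the muscle covariate given above, the part of these cells in the members' rise was not tested, and in bulk tumours fewer cells of a type and less RNA per cell cannot be told apart.

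Adding anti-PD-1 changed no member by the test. In unirradiated allografts 0 of 52 were called by edgeR or DESeq2, edgeR called 0% of genes, and 6 members had an unadjusted p below 0.05. All 52 members were nonetheless higher with the antibody, with a median of 0.48 on the log2 scale, from 0.17 for Isg20 to 0.74 for Oas3, against -0.00 over all genes. Members share tumours, so 52 changes of 1 sign are not 52 observations. In the same comparison the T cell markers had a median change of 0.90, with 0 of 6 called and 4 at an unadjusted p below 0.05. Neutrophil markers had a median change of 0.99, with all 6 positive, 0 called and 0 at an unadjusted p below 0.05. The part of either cell type was not tested. After 20 Gy the allograft median was -0.08, from -0.66 for Ifit3b to 0.59 for Ifi27l2a, with 20 members higher and 32 lower. There 0 members were called by either tool, 0 had an unadjusted p below 0.05, and 0% of genes were called. Neutrophil markers had a median change of 1.32, with 2 of 6 at an unadjusted p below 0.05, and T cell markers of 0.71, with 1 of 6. All 8 mesenchymal markers were lower (median -0.58), with 0 at an unadjusted p below 0.05. Of these lists 0 markers were called, and their part was not tested. The median of the members was 0.06 without 20 Gy isotype replicate 1 and 0.08 without 20 Gy anti-PD-1 replicate 2.

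In unirradiated primary tumours 0 of 52 members were called by either tool for antibody, with 0 at an unadjusted p below 0.05 and 0% of genes called, and the median was -0.10, from -0.57 for Mx2 to 0.35 for Parp14. In that comparison all 5 neutrophil markers and all 6 T cell markers were positive, with medians of 1.15 and 1.18, and 0 of the cell markers had an unadjusted p below 0.05; their part was not tested. That sign turned with single tumours: without 0 Gy isotype replicate 4 the median was 0.30 and 50 members were higher, still with 0 called, and without 0 Gy anti-PD-1 replicate 5 it was 0.02. After 20 Gy all 52 primary members were lower with anti-PD-1 than with isotype, with a median of -0.41 from -1.01 for Ifi27l2a to -0.04 for Dtx3l, 0 called by either tool, 5 at an unadjusted p below 0.05 and 0% of genes called. Those 5 were Ifi27l2a (-1.01 ± 0.39), Oas2 (-0.76 ± 0.34), Oas1g (-0.91 ± 0.41), Oas1b (-0.82 ± 0.38) and Samd9l (-0.55 ± 0.26), with adjusted p from 0.596 to 0.605. Of the cell markers 0 were called there, and all 5 endothelial (median 0.41, 2 at an unadjusted p below 0.05), all 5 neutrophil (0.54, 1), all 8 skeletal muscle (0.78, 0) and 7 of 8 mesenchymal markers (0.31, 0) were positive. Their part was not tested. Without 20 Gy anti-PD-1 replicate 5 the median was -0.28, with 50 members lower.

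The radiation change was larger with isotype than with anti-PD-1 for 50 of 52 members in allografts and for 51 of 52 in primary tumours. As a test of that difference, the interaction of dose and antibody called 0 members in either tumour kind, by edgeR and by DESeq2, and 0% of genes by edgeR. Its median over the members was -0.52 in allografts, with 1 member (Trim25, -0.52 ± 0.24, adjusted p = 0.864) at an unadjusted p below 0.05, and -0.35 in primary tumours, with 0. It ran from -1.26 ± 0.64 for Ifit3b to 0.14 for Ifi27l2a in allografts, and from -0.76 for Oas2 to 0.08 for Tdrd7 in primary tumours. A p above the threshold does not show that both arms responded alike. Without primary 0 Gy isotype replicate 4 the primary median was -0.69, and without 20 Gy anti-PD-1 replicate 5 it was -0.23.

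Combined treatment was set against 0 Gy with isotype, tumours that also serve the isotype dose comparison, so the 2 are given side by side only. In allografts 52 of 52 members were called higher, against 7.43% of genes, with a median of 1.85 (1.92 for 20 Gy with isotype), from 0.81 for Trim25 to 3.62 for Ifit1bl1. In primary tumours 47 of 52 were called, against 8.78% of genes, with a median of 1.36 (1.76 for 20 Gy with isotype), from 0.41 for Tdrd7 to 2.45 for Ifit1bl1. The 5 not called were Oas1b, Mx2, Isg15, Usp18 and Tdrd7, and without 0 Gy isotype replicate 4 all 52 were. The separation of the groups was complete for 49 members in allografts (1586 of 17746 genes) and for 0 in primary tumours (62 of 17770 genes). Of the interferon genes tested, Ifnb1 was called higher in allografts (2.59, adjusted p = 0.0323) and Ifng was not (1.73, adjusted p = 0.0652). In primary tumours Ifng was called higher (2.66, adjusted p = 0.0302) and Ifnb1 was not (1.33, adjusted p = 0.216). Cell markers moved in these comparisons as well. In allografts 5 of 5 pan-leukocyte markers (median change 1.72) and 5 of 8 monocyte and macrophage markers were called higher, with 1 of 6 neutrophil markers (Csf3r) and 1 of 5 endothelial markers (Kdr), and all 6 T cell markers were positive (median 0.80) with 0 called. In primary tumours 4 of 5, 4 of 8 and, for neutrophils, 3 of 5 (median change 3.14) were called higher, Vim was called lower, and the 8 muscle genes had a median change of 2.94 with 0 called and 7 at an unadjusted p below 0.05. All 6 T cell markers were positive there too (median 1.24), with 0 called. With the muscle list as a covariate 52 and 50 members were called in allografts and primary tumours, and the part of the other cell types was not tested.

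Unirradiated primary and allograft tumours given isotype differed in 1 of 52 members. Tdrd7 was higher in primary tumours (0.77 ± 0.22, adjusted p = 0.0421), where 6.03% of genes were called higher. The median over the members was 0.26, from -0.93 for Ms4a4c to 1.24 for Ifit3b. Without primary replicate 4 it was -0.17 with 3 members called. Leaving out any 1 of allograft replicates 1, 2 and 4 or of primary replicates 1, 3, 5 and 8 left 0 called. Ifng itself was lower in the primary tumours (-2.86 ± 0.70, adjusted p = 0.0227), as were 4 of 6 T cell markers, 2 of 5 neutrophil markers and 1 of 5 pan-leukocyte markers. Of 8 mesenchymal markers 3 were called higher (median 0.95), of 8 monocyte and macrophage markers 1 higher and 1 lower, and the 8 muscle genes had a median of -2.04 with 0 called. The part of these cell types was not tested. With muscle as a covariate 0 members were called, but the call of Tdrd7 was also lost without single tumours, so this does not show muscle's part. The radiation change did not differ between tumour kinds by test for any member: the interaction of kind and dose called 0 of 52 members by either tool under isotype (0.00517% of 19327 genes, 1 gene) and 0 under anti-PD-1 (0% of genes), with 0 at an unadjusted p below 0.05 in each. Member medians of that interaction were -0.17 and -0.04, and values ran from Ifit3b (-1.18 ± 0.76, adjusted p = 0.582) to Ms4a4c (0.75) under isotype and from Ifi27l2a (-0.72) to Ifitm3 (0.58) under anti-PD-1.

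**Figure D3:**
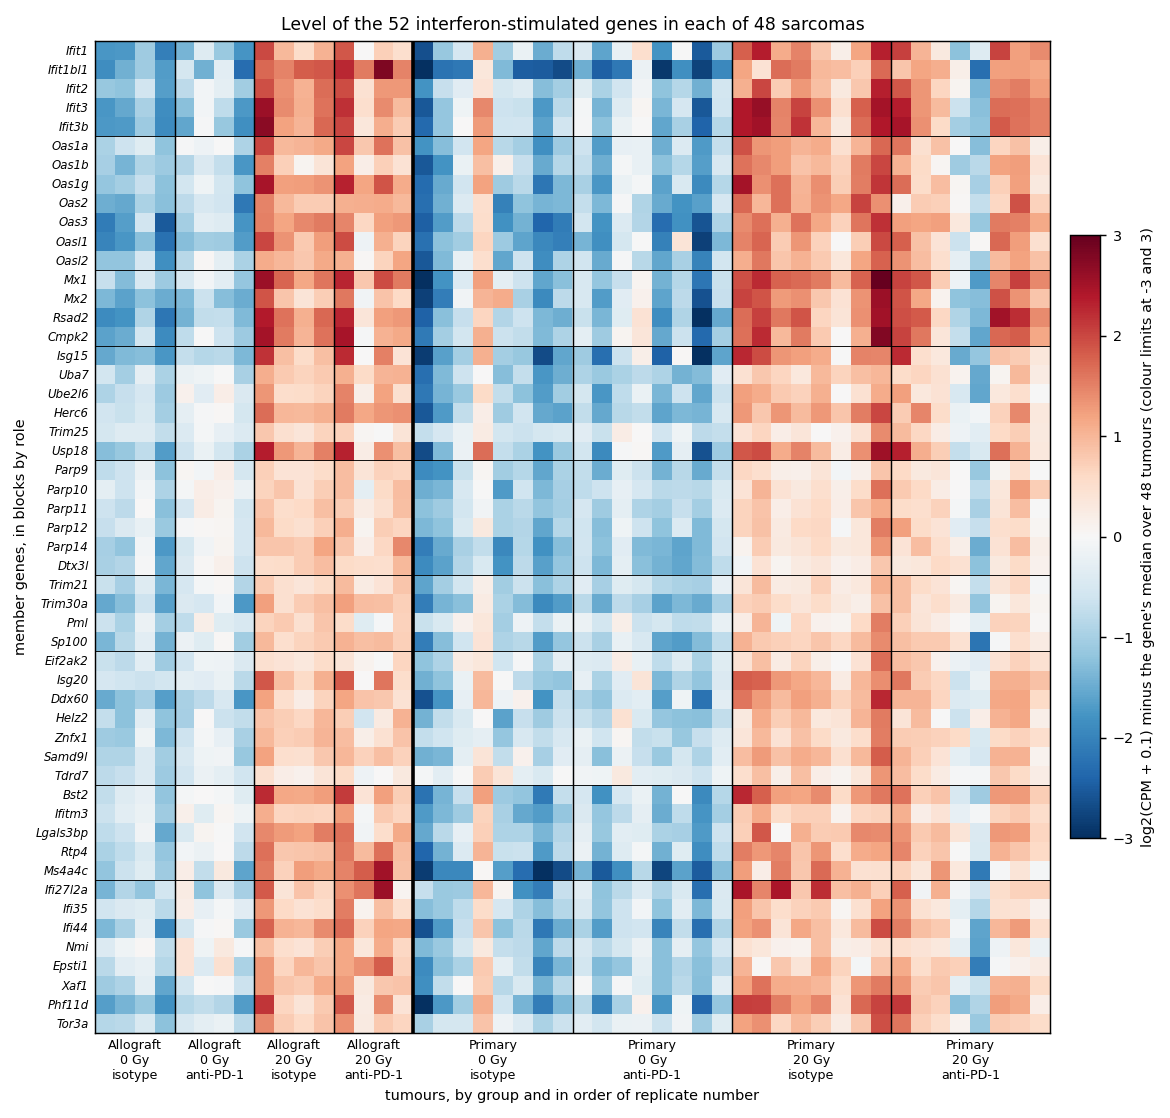
Each column is 1 of 48 tumours, in 8 groups in order of replicate number, and each line is 1 of 52 members in blocks by role; colour is log2(CPM + 0.1) minus the gene's median over all tumours, red above and blue below, with colours ending at -3 and 3. Examples of columns mostly of 1 shade are the fourth unirradiated primary isotype tumour, red among blue, and the fifth irradiated anti-PD-1 primary tumour, blue among red.

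The tumours that led their group differed in how many members they led. In each of the 8 groups 1 tumour held the top value for the largest number of members: 50 of 52 in unirradiated isotype allografts (replicate 3), 26 in unirradiated anti-PD-1 allografts (replicate 2), 40 in irradiated isotype allografts (replicate 1) and 38 in irradiated anti-PD-1 allografts (replicate 1). In primary tumours these numbers were 51 (replicate 4) and 23 (replicate 4) at 0 Gy and 32 (replicate 8) and 35 (replicate 1) after 20 Gy, isotype first. That leading tumour also had the highest Ifnb1 in 6 of the 8 groups, the highest Ifng in 2 and the highest pan-leukocyte sum in 3. The tumour lowest for most members ranked 4, 1, 4 and 3 of 4 for Ifnb1 in the allograft groups, in the same order. In the primary groups it ranked 7, 8, 8 and 7 of 8, where rank 1 is the highest. Ifnb1 counts were few at 0 Gy, so ranks there are not firm. These values come from the same libraries and are a description. Some members departed from the rest: irradiated primary isotype replicate 8, which led for 32 members, was the lowest of 8 for Ifi27l2a (233 CPM), and irradiated anti-PD-1 allograft replicate 4 was the highest for Parp14 (460 CPM) and Helz2 (209 CPM) and the lowest for Ms4a4c (271 CPM) and Ifi27l2a (150 CPM).

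Unirradiated primary isotype replicate 4 had 22 Ifnb1 counts where the other 7 had 0 to 4, and its members summed to 0.841% of the scaled library, within the irradiated range of 0.700 to 1.58%. It also had the highest Ifng (17 counts) and pan-leukocyte sum (799 CPM) of its group. At the other end, irradiated primary anti-PD-1 replicate 5 held the lowest value for 41 members, with 4 Ifnb1 counts, 2 Ifng counts and a pan-leukocyte sum of 405 CPM, the lowest of that group. Its members summed to 0.327%, close to the median of 0.333% in its own arm at 0 Gy. Replicate 4 of that group was low for the members (0.496%), with 1 Ifnb1 count and 84 Ifng counts. Its skeletal muscle sum (81713 CPM) and its pan-leukocyte sum (2045.8 CPM) were the highest of that group. The part of muscle and of white blood cells in its low member share was not tested.

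**Figure D4:**
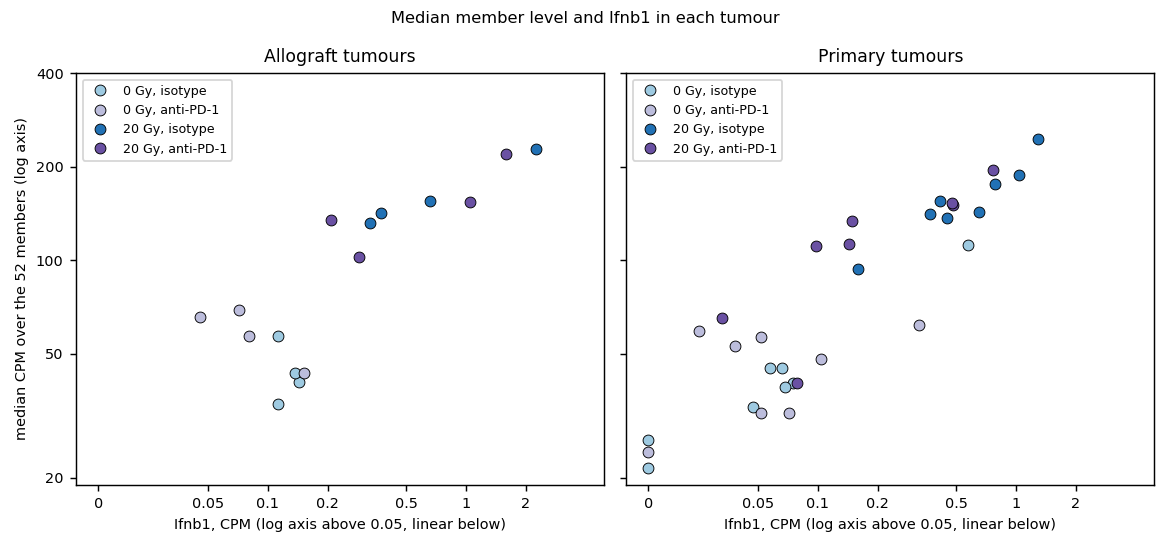
Median CPM of the 52 members (vertical log axis) and Ifnb1 CPM (horizontal, log above 0.05 and linear below) in each tumour, allografts left and primary tumours right, coloured by dose and antibody. Irradiated tumours lie mostly to the upper right, and 1 unirradiated primary isotype tumour, at 0.574 CPM of Ifnb1, lies near them.

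Members with and without the ISRE core in their window overlapped in their response. In isotype allografts the median log2 fold change was 2.14 for the 17 with a match, from 1.05 to 3.42, and 1.70 for the 24 without, from 0.96 to 3.20. In isotype primary tumours the medians were 2.07 and 1.70. Oasl1 and Ifit2 had windows without the letters and changed by 3.20 and 2.66 in isotype allografts, while Tdrd7, with 1 match, changed by 1.05.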

How the data were processed

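RNA of 48 tumours was sequenced from a stranded messenger RNA library kit, per the labels' protocols. The authors deposited 1 table of raw counts per gene, in whole numbers and not normalised, whose name refers to a first run. Reads were handled with Trimmomatic 0.36, STAR and HTSeq on mm10, per the submitters' processing notes; the annotation and the strand setting of the counting are not given in the sources used here. The table held 36854 genes, 0 entries that name no gene and 0 columns that match no sample. GENCODE M21 named 36796 of the Ensembl identifiers. All members were found; of the other lists Ifna1 was not matched, and the symbol Mb21d1 was found as Cgas.

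Tumours were grouped by the labels. Genes were filtered with filterByExpr, normalised by TMM (a trimmed mean of log ratios) and tested with edgeR 4.0.16 (limma 3.58.1, R 4.3.3) by the quasi-likelihood F test, two-sided, with Benjamini-Hochberg adjustment over all genes tested. All adjusted p-values and all shares of genes called in the text come from this test. The 4 groups of a tumour kind shared 1 fit, the baseline comparison used its 2 groups, and interactions of tumour kind and dose used all 48 tumours. SE is the size of the log2 fold change over the root of its F statistic. The test was checked on simulated counts. DESeq2 1.42.0, other scalings and filters, covariates and leaving out each tumour were the alternatives. Motifs were searched with Python 3.11.15.

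By the naming rule, all members are counted and named, and values by tumour are given for 26 of them, 1 to 4 per role group; per comparison the members with the largest and smallest change and those not called are named, with Irf7, Ifnb1 and Ifng from the pathway lists; 1 further pathway gene is not reported here. Members, lists and rules were chosen with earlier results of these data known. The labels describe separate tumours, and the test sets each difference against the variation between tumours. For allografts that is variation between implants of 1 line.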

Additional observations from a re-analysis of the deposited data

Results flagged for a closer look

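For each of the 26 members described by tumour, the highest and the lowest tumour of each group were tested for a gap to the rest with Dixon's test, 208 sets of values in all, of which 29 passed; chance passes about 1 in 20. Of these, 17 came from 1 tumour, the fourth unirradiated primary tumour given isotype. It was the highest of its 8 for Ifit1 (234.73 CPM), Ifit3 (381.63 CPM), Ifit3b (105.45 CPM), Ifit1bl1 (24.583 CPM), Oasl1 (115.98 CPM), Oas1a (145.15 CPM), Mx1 (71.169 CPM), Rsad2 (73.124 CPM) and Cmpk2 (72.342 CPM). It was also the highest for Isg15 (367.86 CPM), Usp18 (166.24 CPM), Trim30a (126.23 CPM), Isg20 (51.93 CPM), Bst2 (619.25 CPM), Ifitm3 (1067.1 CPM), Ms4a4c (149.74 CPM) and Ifi27l2a (284.02 CPM). These values share 1 library and are not 17 separate events. The dose changes of these members in primary isotype tumours without it are given with each role group.

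The first irradiated isotype allograft stood above its group for Oas1a (255.03 CPM), Isg15 (788.46 CPM), Herc6 (64.401 CPM), Bst2 (1249.2 CPM) and Ifitm3 (1431.5 CPM). In that group the fourth tumour stood above the others for Parp14 (384.19 CPM). The second irradiated anti-PD-1 allograft stood below its group for Uba7 (75.556 CPM). Among primary tumours, the fourth unirradiated anti-PD-1 tumour was high for Ifit1bl1 (17.154 CPM), and the eighth irradiated isotype tumour was high for Mx1 (310.95 CPM), Parp14 (427.15 CPM) and Eif2ak2 (265.03 CPM). The first irradiated anti-PD-1 primary tumour was high for Isg15 (832.55 CPM).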

How the results depend on the processing

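In the dose, combined-treatment and baseline comparisons 7540 values of single members were recomputed over the other settings, leaving out each tumour included. Of these, 0 turned against a called direction, 318 lost a call, 60 gained one and 7162 stayed called or stayed not called. Values not called before and after are in the last number whichever sign they took. In isotype allografts 33 members were called with the first digit of the animal identifier as a covariate, against 52; the digit is partly confounded with dose. In anti-PD-1 allografts 0 were called with only the groups compared in the fit and 8 with all 48 tumours in 1 fit, against 38; with DESeq2 50 were. The baseline count of 1 became 0 with no expression filter, with Xist as a covariate and with muscle genes as a covariate. Causes were not tested, and the share of all genes called under each alternative is not given here. A change in the number of members called is therefore not a result about the members alone. Leaving out 1 tumour gave 46 to 52 members in isotype allografts, 18 to 44 in anti-PD-1 allografts, 51 to 52 and 44 to 52 in primary tumours, 50 to 52 and 40 to 52 for combined treatment and 0 to 3 at baseline. Counts for antibody and for interactions were 0 in every such fit. Few counts limit the precision for Ifnb1. No paired analysis was possible because the labels give no replicate numbers.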
